A study of Mus musculus with 6 samples.

Results

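The MHC class I antigen processing genes are 10 genes that make, load and regulate class I molecules: H2-K1, H2-D1, B2m, Tap1, Tap2, Tapbp, Nlrc5, Psmb8, Psmb9 and Psmb10. They were chosen by name from the 32285 genes counted, and all 10 exceeded 50 CPM (counts scaled so that every library has the same total) in either library of each comparison. Their RNA was followed in CD8 T cells of tumors and draining lymph nodes (LN) of mice bearing B16-OVA, a melanoma line that expresses ovalbumin, harvested on day 12 by the deposited design and between days 12 and 15 by the study's text. Control mice carried CD8-Cre and the Rosa26Tomato reporter, and CD8-IFNγRKO mice carried the same alleles with IFNgR1flox/flox, so that Cre and the reporter were shared by both groups and the receptor for interferon-γ (IFNγ) was targeted in cells with CD8-Cre activity. CD45+CD3+CD8+Tomato+ cells of 3 mice were pooled into 1 library of 5′ transcript ends per tissue and genotype, giving 4 libraries, and the 2 tumor pools also had T cell receptor (TCR) libraries. Mice of both sexes, 6 to 10 weeks old, were used in the study.

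Class I molecules carry short peptides from inside the cell to its surface, where CD8 T cells read them. Proteasomes cut the peptides, the TAP transporter moves them into the endoplasmic reticulum, and tapasin helps to load them onto a heavy chain bound to β2-microglobulin. CD8 T cells express this machinery themselves. IFNγ is a textbook inducer of these genes, type I interferons induce them too, and NLRC5 is the transactivator that binds class I promoters as part of a complex.

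After filtering, 8634 of 12214 barcodes of CD8-IFNγRKO tumors and 7100 of 11369 of control tumors remained as cells. In LN, 6731 of 11298 remained for CD8-IFNγRKO and 6640 of 12979 for control mice, so the share kept differed between libraries. Kept cells had 28841136 to 93969472 unique molecular identifiers (UMIs, each standing for 1 captured RNA molecule) per library. The median depth was 9399.5 UMIs per cell in CD8-IFNγRKO tumors and 6307 in control tumors, while the LN medians were 3863 and 4051. Ifngr1, the targeted gene, had 237 CPM in CD8-IFNγRKO tumors against 718 CPM in control tumors, with LN values of 137 against 182 CPM. Reads were not placed relative to the deleted part of the gene. All 5 CD8 T cell markers were at 171 CPM or more in each library. The filter kept only cells with UMIs of Cd2, Cd8a and Cd8b1, so the presence of these markers was fixed in advance. In tumors the 5 markers were lower in CD8-IFNγRKO cells, with log2 ratios of -0.51 for Cd8a, -0.43 for Cd3e, -0.39 for Cd2, -0.32 for Cd8b1 and -0.15 for Trac. The 12 myeloid markers summed to 1.74 to 12.8 CPM, 4 B cell markers to 0.437 to 22.2 CPM and 5 melanoma markers to 0.200 to 3.26 CPM. Of the B cell markers, 1 to 2 were at 0 in tumors and none in LN, and 2 to 3 melanoma markers and 5 myeloid markers were at 0 in LN and none in tumors. Between 51 and 82 barcodes were shared by any pair of libraries, at most 1.23% of the smaller one. Each genotype was 1 library per tissue. No test between libraries was therefore possible, and the 95% intervals given below cover counting error only, not differences between mice.

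Of the 10 genes, 8 lie on chromosome 17 or 2 and the rest, Nlrc5 and Psmb10, on chromosome 8 of build GRCm38.p6. Psmb9 (chr17:34182030-34187330) and Tap1 (chr17:34187556-34197225) stand head to head, with 225 bases between their RefSeq starts, followed by Psmb8 (chr17:34198195-34201454) and Tap2 (chr17:34204479-34216321). Promoter windows of 300 bases (250 before and 50 after a start) were at hand for 8 of the 10 genes, and the parts before the start that bear on the groups below are shown first. Capitals mark letters matching, on either strand, an ISRE core (GAAANNGAA), a class I interferon element written after H2-K1 had been read (GAANTGAAA), a GAS (TTCNNNGAA) or a CCAAT box (CCAAT). The first 3 sequences are the 160 bases before a start of the heavy chain genes and of B2m, and the fourth is the whole stretch between Psmb9 and Tap1, read in the direction of Tap1. Sequences are from RefSeq.
H2-K1 (chr17:34000348-34000507, minus strand): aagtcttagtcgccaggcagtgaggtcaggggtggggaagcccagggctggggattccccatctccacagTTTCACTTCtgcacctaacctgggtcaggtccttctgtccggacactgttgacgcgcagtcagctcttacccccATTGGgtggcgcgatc
H2-D1 (chr17:35262934-35263093, plus strand): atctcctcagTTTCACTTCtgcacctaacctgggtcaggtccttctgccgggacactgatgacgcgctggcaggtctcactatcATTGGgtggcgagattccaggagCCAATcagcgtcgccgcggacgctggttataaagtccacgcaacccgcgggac
B2m (chr2:122147527-122147686, plus strand): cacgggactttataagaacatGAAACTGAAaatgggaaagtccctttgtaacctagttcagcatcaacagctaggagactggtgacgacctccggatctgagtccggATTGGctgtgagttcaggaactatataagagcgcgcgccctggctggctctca
Psmb9-Tap1 shared stretch (chr17:34187331-34187555, plus strand): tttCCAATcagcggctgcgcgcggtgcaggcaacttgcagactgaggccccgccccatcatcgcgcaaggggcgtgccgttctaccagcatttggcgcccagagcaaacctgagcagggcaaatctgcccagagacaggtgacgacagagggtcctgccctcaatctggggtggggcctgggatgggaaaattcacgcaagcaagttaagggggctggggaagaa

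H2-K1 and H2-D1 shared the class I interferon element, beginning at position -90 before the H2-K1 start and -150 before the H2-D1 start. Because it was written after H2-K1 had been read, its match there was fixed in advance, and H2-D1 is a close paralog. Of 32851 windows of this length 1.83% held it, which is therefore no measure of enrichment. B2m held the ISRE core, at position -139, as did 8.56% of all windows. Of the 8 genes with a window, Psmb8 alone held a GAS, found in 8.30% of windows. A CCAAT box was present in 6 of the 8 (H2-K1, H2-D1, B2m, Tap1, Tapbp and Psmb9), against 37.4% of windows. The box of Tap1 and that of Psmb9 are the same site in their shared stretch, counted for both genes. These matches describe letters only, and factor binding was not measured. RefSeq gives a second start for H2-K1, whose window held the same elements. The annotated H2-K1 gene reaches chr17:34000619, so both starts and the printed bases lie within it. A global alignment of the 300-base windows of H2-K1 and H2-D1 had 361 columns, gaps included, with the same base in 218 (60.4%). The windows hang on starts at unlike distances from the shared element, which adds gaps. This share therefore depends on where the starts lie, and no alignment set on the shared element was made. Because the heavy chain genes are close paralogs, the split of reads between them, and among the related class Ib genes, is uncertain.

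The first question was whether class I RNA made up a smaller share of the UMIs of tumor cells targeted for the IFNγ receptor. CPM gives such shares and not RNA per cell, and CD8-IFNγRKO tumor cells had more UMIs per cell. H2-K1 had 226326 UMIs over 8634 CD8-IFNγRKO cells and 172528 UMIs over 7100 control cells. A lower share therefore need not mean less RNA in a cell. Over all kept cells, transcripts of the heavy chains and of B2m were lower in CD8-IFNγRKO than in control TILs (tumor-infiltrating lymphocytes). Immunoproteasome transcripts were slightly higher in CD8-IFNγRKO TILs. H2-K1, which encodes the heavy chain of H-2K, was at 2409 CPM (95% interval 2399 to 2418) in CD8-IFNγRKO and 2902 CPM (2888 to 2916) in control tumors. H2-D1, the H-2D heavy chain, was at 2106 and 2386 CPM. B2m, the light chain common to class I molecules, was at 1973 and 2326 CPM. In these 3 structural genes the CD8-IFNγRKO library was the lower one, with log2 ratios of -0.27 (-0.28 to -0.26), -0.18 (-0.19 to -0.17) and -0.24 (-0.25 to -0.23).

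Nlrc5, the transactivator, was also lower, at 52.1 CPM in CD8-IFNγRKO and 64.5 CPM in control TILs (log2 ratio -0.30, -0.37 to -0.25). The peptide transporter and tapasin differed little. Tap1 was at 287 and 298 CPM, Tap2 at 241 and 249 CPM, and Tapbp, which encodes tapasin, at 239 and 233 CPM. Their log2 ratios were -0.05, -0.05 and 0.04. The immunoproteasome subunits lay on the other side of 0. Psmb8 was at 1104 and 1064 CPM (log2 ratio 0.05, 0.04 to 0.07), Psmb9 at 501 and 446 CPM (0.17, 0.14 to 0.19) and Psmb10 at 211 and 201 CPM (0.07, 0.03 to 0.10).

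None of the 10 differed by 0.32 or more on the log2 scale, the limit used for counts here, in either direction in the tumor. At that limit, 12.5% of the 3094 genes with at least 50 CPM were lower in CD8-IFNγRKO TILs and 16.5% were higher. The median log2 ratio of the 10 genes was -0.05, against 0.03 over all those genes, whose middle 50% ran from -0.16 to 0.22. H2-K1, H2-D1, B2m and Nlrc5 fell below that range and the other 6 inside it. From the lowest ratio upwards, Nlrc5 ranked 423 and H2-K1 484 of 3094. The T cell genes Cd8a, Cd3e and Cd2, at -0.51, -0.43 and -0.39, ranked lower than any of the 10, so that a lower level was not particular to class I genes. Of these, Cd8a and Cd2 were also used to filter cells, and Cd3e was not.

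**Figure D1:**
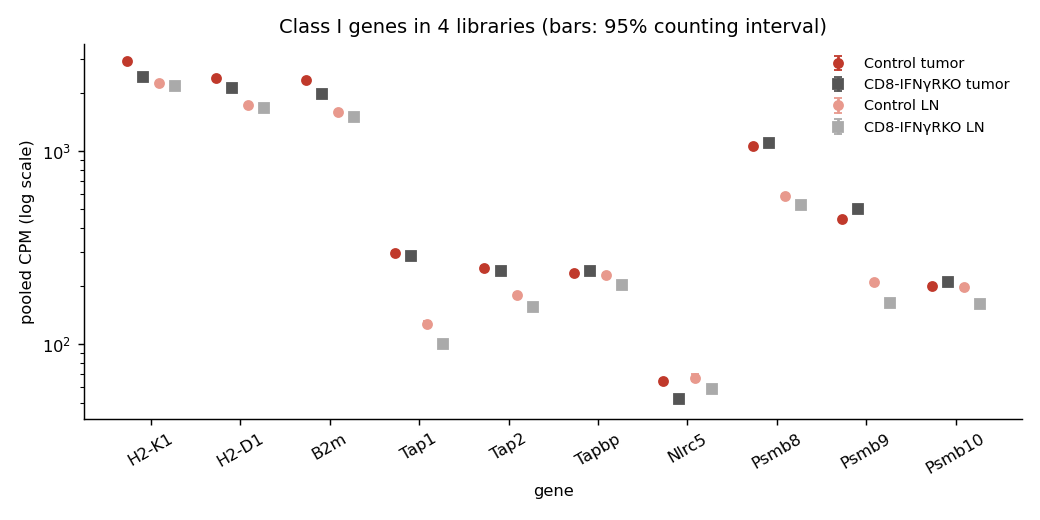
Pooled CPM on a log scale of each of the 10 genes in the 4 libraries, with 95% counting intervals that are mostly smaller than the symbols. H2-K1, H2-D1 and B2m were highest in control tumors (2902, 2386 and 2326 CPM), and Psmb8, Psmb9 and Tap1 separate tumor from LN libraries in both genotypes.

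Depth and cell cycling moved with the tumor result. CD8-IFNγRKO TILs were deeper, and 15 of 16 cycling genes were past the limit of 0.32 there (median log2 ratio 0.61, from 0.32 for Nusap1 to 0.99 for Mcm5). When only cells with 4000 to 8000 UMIs were taken (1922 and 2554 cells), the log2 ratios shrank to -0.09 for H2-K1, -0.04 for H2-D1 and -0.13 for B2m, and Nlrc5 turned to 0.07 (-0.06 to 0.20). In the same cells Psmb9 was at 0.14 and Psmb10 at 0.26. Both heavy chains lay closer to 0 in each bin of depth than over all kept cells (-0.27 and -0.18), though H2-K1 hardly did so in the deepest. B2m and Nlrc5 went past their values over all kept cells (-0.24 and -0.30) in the deepest bin alone. Under 4000 UMIs, H2-K1 was at -0.14, H2-D1 at -0.11, B2m at -0.20 and Nlrc5 at -0.13 (-0.34 to 0.08). Above 8000 and up to 16000 UMIs they were at -0.18, -0.08, -0.14 and -0.24. Over 16000 UMIs (1915 and 870 cells) they were at -0.26, -0.12, -0.26 and -0.38, so that H2-K1, H2-D1 and B2m were lower in all 4 bins of depth and by most in the deepest cells, where Nlrc5 passed the limit. Cells were also thinned to 1600 UMIs each and split by the UMIs of the 16 cycling genes. Cells with 0 to 1 such UMIs made up 26.8% of CD8-IFNγRKO and 52.7% of control TILs, and cells with 6 or more made up 41.3% and 19.7%. Among cells with 0 to 1 cycling UMIs, the log2 ratios were -0.08 for H2-K1, -0.01 for H2-D1, -0.08 for B2m and -0.07 for Nlrc5. With 2 to 5 they were -0.24, -0.14, -0.25 and -0.20, and with 6 or more -0.20, -0.12, -0.08 and 0.11. The heavy chains differed least in the cells with the fewest cycling UMIs, while B2m was at -0.08 at both ends and Nlrc5 lay above 0 in the most cycling cells. With both limits set together (945 and 1742 cells) H2-K1 was at 3348 and 3497 CPM (-0.06, -0.09 to -0.04). H2-D1 was then at -0.03 (-0.06 to 0.00), B2m at -0.08 and Nlrc5 at 0.13 (-0.04 to 0.31). Psmb8 was at -0.00 (-0.05 to 0.04) and Psmb9 at 0.03 (-0.04 to 0.10), but Psmb10 at 0.30 (0.20 to 0.40). Tap1 was at -0.09, Tap2 at -0.11 and Tapbp at 0.14. With 0 to 1 cycling UMIs at any depth, Psmb8, Psmb9 and Psmb10 were at 0.01, 0.04 and 0.24, and with 6 or more at 0.09, 0.12 and 0.09. The ratio of the heavy chains lies within each library and does not depend on library size. It was 1.14 UMIs of H2-K1 per UMI of H2-D1 in CD8-IFNγRKO and 1.22 in control TILs, and 1.29 and 1.30 in LN.

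Within each tumor library, the structural genes were lower in the cells with more cycling UMIs. Cells with 6 or more, compared with cells with 0 to 1, had log2 ratios of -0.52 for H2-K1, -0.46 for H2-D1 and -0.45 for B2m in CD8-IFNγRKO tumors, and of -0.40, -0.35 and -0.45 in control tumors. Psmb9 was on the other side in both, at 0.23 (0.14 to 0.32) and 0.15 (0.04 to 0.25), and Psmb8 and Tap1 were between 0.01 and 0.12. The 10 genes summed to 11390.1 and 11712 CPM in cells with 0 to 1 cycling UMIs of CD8-IFNγRKO and control tumors, and to 8993 and 9477 CPM in those with 6 or more. How far depth and cycling account for the genotype difference was not tested.

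In the LN, where the depth of kept cells was alike and few cells cycled, all 10 genes were lower in the CD8-IFNγRKO library. Psmb9, Tap1 and Psmb10 differed most. Psmb9, which encodes the subunit LMP2, was at 163 CPM (158 to 168) in CD8-IFNγRKO and 209 CPM (204 to 214) in control LN, a log2 ratio of -0.36 (-0.41 to -0.30). Its neighbour Tap1 was at 101 and 128 CPM (-0.34, -0.41 to -0.27). Psmb10, or MECL-1, was at 162 and 197 CPM (-0.28, -0.34 to -0.22). Psmb9, Tap1 and Psmb10 ranked 20, 23 and 33 from the lowest of 2752 genes with at least 50 CPM.

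Tap2, Nlrc5, Tapbp and Psmb8 followed. Tap2 was at 157 and 180.1 CPM (-0.19, -0.25 to -0.14), and Nlrc5 at 59.0 and 67.4 CPM (-0.19, -0.29 to -0.10). Tapbp was at 203 and 228 CPM (-0.16, -0.22 to -0.11). Psmb8, or LMP7, was at 525 and 588 CPM (-0.16, -0.20 to -0.13). The structural genes differed least, with H2-K1 at 2155 and 2243 CPM (-0.06), H2-D1 at 1666 and 1727 CPM (-0.05) and B2m at 1499.6 and 1591 CPM (-0.08). Their intervals all lay below 0, the largest upper bound being -0.03.

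Psmb9 and Tap1, 2 of the 10, were lower by at least 0.32 on the log2 scale in the LN and none was higher, against 0.945% of all genes lower and 0.836% higher. The median of the 10 was -0.18, and that of all genes 0.03 with a middle 50% from -0.03 to 0.09. LN libraries thus differed far less over all genes than tumor libraries did, and all 10 genes lay below the middle range. With 10 CPM added instead of 1 CPM, the count was 1, and the share of all genes under that setting is not given here. Each of the 10 kept its direction among cells with 4000 to 8000 UMIs, where H2-K1 was at -0.08, B2m at -0.11 and Psmb9 at -0.40, and each did so with other library sizes. In LN cells with 0 to 1 cycling UMIs (6017 and 5748 cells) Tap1 was at -0.34, Psmb9 at -0.35 and Psmb10 at -0.32. Fewer cells with much of an RNA and less of it in every cell cannot be told apart in pooled values. B cell markers summed to 22.2 CPM in CD8-IFNγRKO and 18.2 CPM in control LN, and leaving out cells with a UMI of a B cell, myeloid or melanoma marker, an alternative chosen after seeing the data, moved none of the 10 LN ratios outside its interval.

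**Figure D2:**
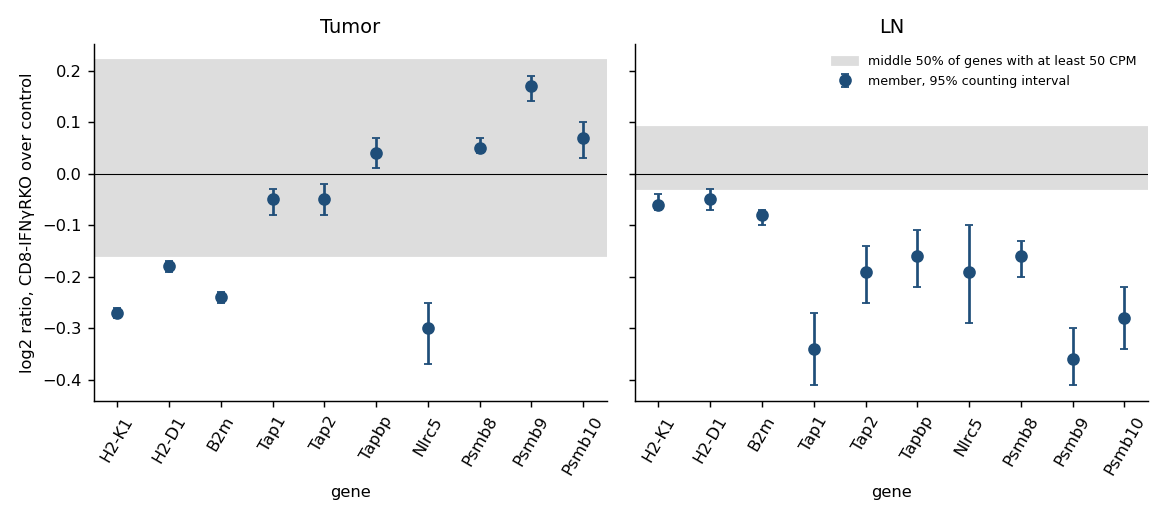
Log2 ratio of CD8-IFNγRKO over control for each gene in tumor (left) and LN (right), with 95% counting intervals and, shaded, the middle 50% of all genes with at least 50 CPM. In LN all 10 points lie below the shaded band, and in tumor the points run from -0.30 (Nlrc5) to 0.17 (Psmb9).

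The tissues thus ordered the genes differently. The difference between the tumor and LN log2 ratios was 0.52 (0.46 to 0.58) for Psmb9, 0.35 for Psmb10, 0.28 for Tap1, 0.22 for Psmb8, 0.21 for Tapbp and 0.15 for Tap2. It was -0.21 (-0.23 to -0.19) for H2-K1, -0.15 for B2m, -0.13 for H2-D1 and -0.12 for Nlrc5. Over all kept cells, the proteasome, transporter and tapasin genes had the lower ratio in LN, and the heavy chains, B2m and Nlrc5 the lower ratio in the tumor. Among cells with 4000 to 8000 UMIs this order was no longer clear for the heavy chains and B2m and turned for Nlrc5. The tumor and LN ratios were then -0.09 and -0.08 for H2-K1, -0.13 and -0.11 for B2m, -0.04 and -0.07 for H2-D1 and 0.07 and -0.25 for Nlrc5, while those of Psmb9 were 0.14 and -0.40.

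Immunoproteasome subunits take the place of standard ones, Psmb8 of Psmb5, Psmb9 of Psmb6 and Psmb10 of Psmb7, and the ratio within a library does not depend on its size. All 3 ratios were lower in CD8-IFNγRKO than in control libraries in both tissues. For Psmb8 over Psmb5, the UMI ratio was 3.82 (3.77 to 3.88) in CD8-IFNγRKO and 4.39 (4.31 to 4.47) in control tumors, and 3.73 and 4.13 in LN. For Psmb9 over Psmb6, it was 1.73 and 1.83 in tumors, and 1.16 (1.11 to 1.21) and 1.45 (1.40 to 1.51) in LN. For Psmb10 over Psmb7, it was 2.12 and 2.87 in tumors, and 3.37 and 4.18 in LN. In the tumor the standard subunits were higher in the CD8-IFNγRKO library, at log2 ratios of 0.25 (Psmb5), 0.24 (Psmb6) and 0.50 (Psmb7), and in LN they were between -0.04 and 0.03. The log2 difference of the ratios in LN was -0.15 (-0.22 to -0.08) for Psmb8, -0.32 (-0.41 to -0.24) for Psmb9 and -0.31 (-0.43 to -0.19) for Psmb10. In tumors it was -0.20 (-0.23 to -0.17), -0.08 (-0.11 to -0.04) and -0.44 (-0.50 to -0.37). At 4000 to 8000 UMIs these tumor differences were -0.18 (-0.26 to -0.10), -0.06 (-0.16 to 0.03) and -0.09 (-0.24 to 0.06), so that Psmb8 over Psmb5 alone kept an interval below 0, while in LN all 3 did, at -0.20, -0.39 and -0.33. Among TILs with 0 to 1 cycling UMIs they were -0.15 (-0.22 to -0.08), -0.08 (-0.16 to -0.01) and -0.27 (-0.40 to -0.15). Among tumor cells with 6 or more cycling UMIs, Psmb9 over Psmb6 was at 0.02 (-0.04 to 0.08). Psmb8 over Psmb5 was then at -0.11 (-0.16 to -0.05) and Psmb10 over Psmb7 at -0.22 (-0.32 to -0.12).

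**Figure D3:**
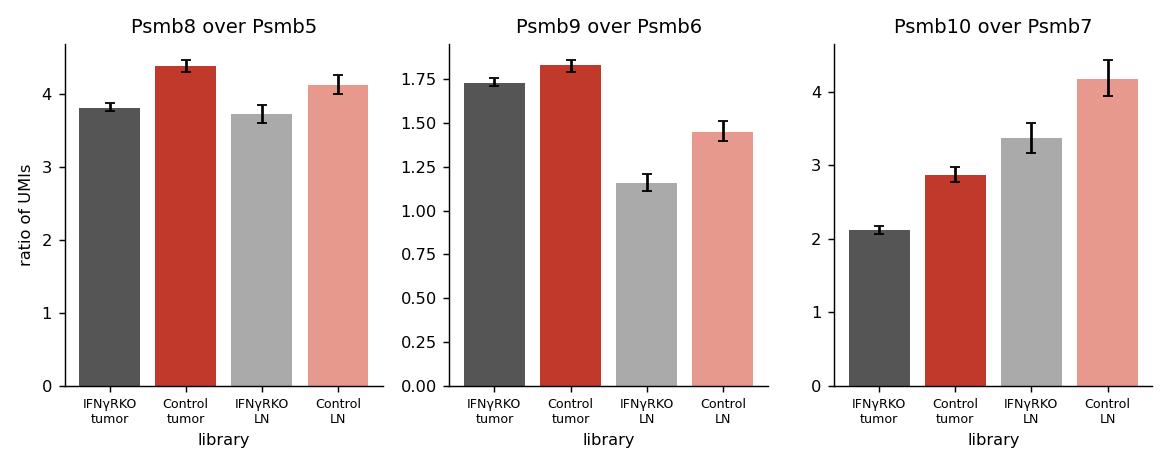
UMIs of each immunoproteasome subunit per UMI of the standard subunit it replaces, in the 4 libraries, with bars for 95% counting intervals. Each ratio is lower in the CD8-IFNγRKO library of its tissue, for example 1.16 against 1.45 for Psmb9 over Psmb6 in LN.

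The second comparison set tumor against LN within a genotype. Psmb9, Tap1 and Psmb8 were the genes most raised in TILs relative to LN cells. Psmb9 had a log2 ratio of 1.09 (1.06 to 1.13) in control and 1.61 (1.58 to 1.66) in CD8-IFNγRKO mice. Tap1 was at 1.21 (1.17 to 1.27) and 1.5 (1.45 to 1.56), and Psmb8 at 0.85 and 1.07. All 3 ratios were above 0 in both genotypes, and higher in CD8-IFNγRKO mice. The structural genes were higher by less, with H2-K1 at 0.37 and 0.16, H2-D1 at 0.47 and 0.34, and B2m at 0.55 and 0.40. Tap2 was at 0.46 and 0.61, Tapbp at 0.03 and 0.24, Psmb10 at 0.03 and 0.38, and Nlrc5 at -0.06 and -0.18. In each genotype 7 of the 10 were higher in the tumor by at least 0.32 and none lower. At this limit 45.2% and 45.5% of all genes were higher in control and CD8-IFNγRKO tumors, and 27.4% and 28.5% were lower.

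Over all genes the median ratio of tumor over LN was 0.20 in control and 0.23 in CD8-IFNγRKO mice. Relative to that shift, Nlrc5 was at -0.41 and H2-K1 turned to -0.07 in CD8-IFNγRKO mice, and in control mice Tapbp and Psmb10 were both at -0.17. Psmb9 (0.89 and 1.39), Tap1 (1.01 and 1.27) and Psmb8 (0.65 and 0.84) stayed well above 0. Among cells with 4000 to 8000 UMIs, the log2 ratio of H2-K1 was 0.65 in control and 0.63 in CD8-IFNγRKO mice, and Nlrc5 turned to 0.12 and 0.44. Depth, cycling and cell state differ between the tissues, and their part was not tested.

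Cells varied most in the tumor. In cells thinned to 1600 UMIs, the 10 genes together gave a median of 15 UMIs in CD8-IFNγRKO and 17 in control tumors, with 10th and 90th percentiles of 9 and 24, and of 10 and 26. In LN the median was 11 in both, with 10th and 90th percentiles of 6 and 16, and of 7 and 17. The variance was 2.38 and 2.06 times the mean in the tumors and 1.34 and 1.38 times the mean in LN, where 1 would be counting noise alone. In tumors the 5th percentile was 7 UMIs in CD8-IFNγRKO and 9 in control cells, and the 95th percentile 27 and 28. The 25th percentiles were 12 and 13 and the 75th 19 and 21, so that neither end differed more throughout. No library had a separate low peak. No H2-K1 UMI was found in 3.79% of CD8-IFNγRKO and 1.97% of control thinned TILs, and in 3.95% and 3.94% of LN cells.

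**Figure D4:**
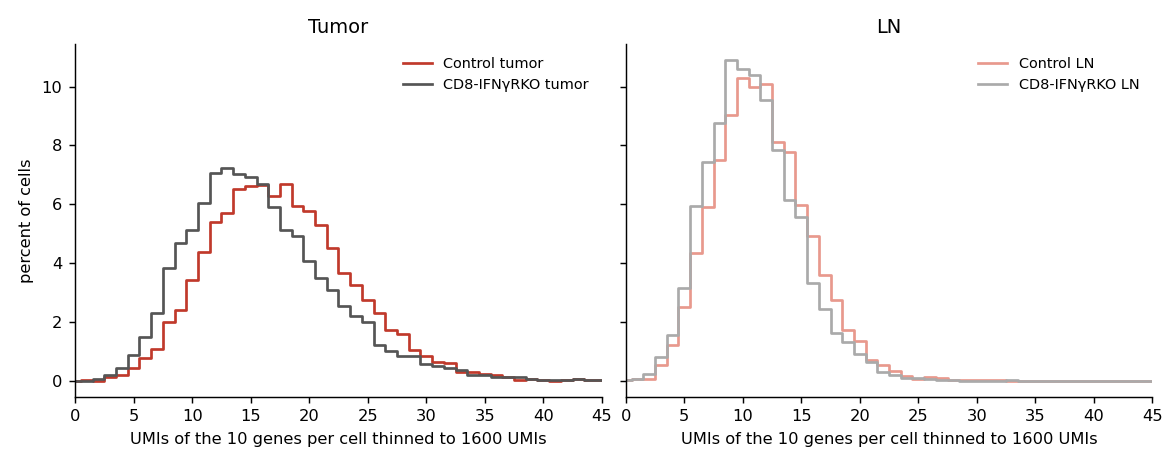
Percent of cells by summed UMIs of the 10 genes, each cell thinned to 1600 UMIs, in tumor (left) and LN (right). Medians are 15 and 17 UMIs in CD8-IFNγRKO and control tumors and 11 in both LN libraries, and no curve has a separate low peak.

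Type I interferon genes gave another split of the cells, which was not crossed with cycling or with depth before thinning. Thinned cells were split by their UMIs of a list of type I interferon response genes (Ifit1, Ifit3, Isg15, Rtp4 and others, 9 of 10 found in the files), none of them a member. The summed level of the 10 genes was higher in cells with 3 or more such UMIs than in cells with 0 in every library. It was 12704 against 9261 CPM in CD8-IFNγRKO tumors, 13224 against 10698 in control tumors, 7805 against 6686 in CD8-IFNγRKO LN and 8584 against 7126 in control LN. In the CD8-IFNγRKO libraries too, class I RNA was higher in cells where more UMIs of type I interferon genes were detected. In CD8-IFNγRKO tumors, H2-K1 was 0.59 (0.54 to 0.64) higher in the upper stratum on the log2 scale, against 0.26 (0.20 to 0.32) in control tumors. Tapbp was 0.74 and 0.72 higher, Nlrc5 0.71 and 0.70, and Psmb10 0.75 and 0.48. For 3 genes the step was smaller in CD8-IFNγRKO than in control tumors, at 0.40 and 0.59 for Tap1, 0.22 and 0.34 for Psmb8, and 0.28 and 0.39 for Psmb9, with overlapping intervals.

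The genotype difference of the structural genes was not the same across these strata. Whether the strata differed in cycling, and its part in this, was not tested. In TILs with 0 UMIs of the list (5211 and 4476 cells) the CD8-IFNγRKO over control ratio was -0.35 for H2-K1, -0.23 for H2-D1 and -0.28 for B2m. With 1 to 2 it was -0.24, -0.11 and -0.23. With 3 or more (769 and 415 cells) it was -0.02, -0.08 and -0.13. The upper stratum held 9.20% of CD8-IFNγRKO and 6.49% of control TILs. In thinned TILs with a UMI of Tcf7, a gene of naive and stem-like T cells (451 and 194 cells), H2-K1 was at -0.07, H2-D1 at 0.06, B2m at 0.01 and Nlrc5 at -0.67, against -0.27, -0.18, -0.25 and -0.16 in TILs with 0. That Nlrc5 value rests on 42 and 29 UMIs, at 58.2 CPM (41.9 to 78.7) and 93.4 CPM (62.6 to 134), whose intervals overlap. A count of 0 does not show that a cell lacks the gene, since 43.6% and 41.4% of LN cells were at 0 by the same split. In TILs with a Tcf7 UMI relative to those with 0, Psmb8 was lower in both genotypes, at -0.33 (-0.44 to -0.21) and -0.43 (-0.61 to -0.24), as was Psmb9, at -0.46 and -0.51. Psmb10 lay on the other side, at 0.41 (0.20 to 0.61) in CD8-IFNγRKO and 0.22 (-0.13 to 0.55) in control tumors. Strata are ranges of UMIs and not cell types.

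**Figure D5:**
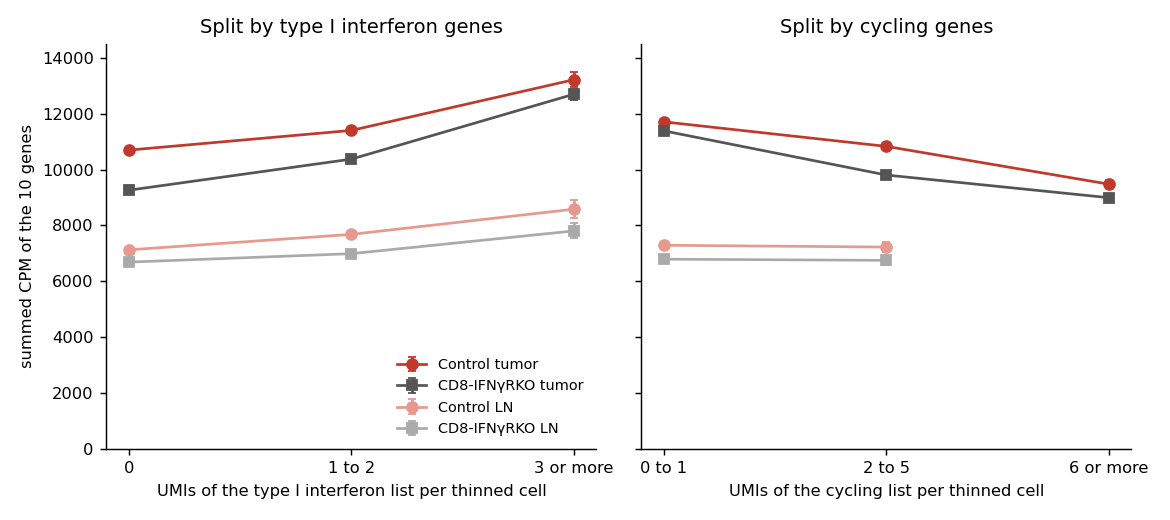
Summed CPM of the 10 genes in thinned cells split by type I interferon UMIs (left) and cycling UMIs (right), with 95% counting intervals and strata of at least 100 cells. The level is higher with more type I interferon UMIs in all 4 libraries (9261 to 12704 CPM in CD8-IFNγRKO tumors) and lower with more cycling UMIs in both tumors (11390.1 to 8993 CPM in CD8-IFNγRKO tumors).

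The related genes of the pathway were taken from lists. Of 6 class Ib genes with at least 50 CPM in tumors, 2 were lower past the limit of 0.32 in the CD8-IFNγRKO library, H2-Q7 (253 and 389 CPM, log2 ratio -0.62) being the lowest and H2-T23 (-0.07) the highest, and none was higher, against 12.5% of all genes lower. In LN 2 of 5 were lower, against 0.945% of all genes, from H2-Q6 (88.1 and 132 CPM, -0.58) to H2-T23 (-0.12). H2-Q6 and H2-Q7, members of the Qa-2 family, are nearly identical in sequence and cannot be separated with certainty. Of 6 genes of peptide loading in the ER, 2 were higher in CD8-IFNγRKO tumors, against 16.5% of all genes, with Canx, a chaperone of new heavy chains, at 0.46, while Tapbpl, the tapasin relative TAPBPR, was the lowest in LN at -0.35. Of the 6 standard subunits, PA28 subunits and assembly factor genes, 1 was higher in CD8-IFNγRKO tumors, Psmb7, a share near the 16.5% of all genes, and none of 5 was past the limit in LN, where Psme2, a PA28 subunit, was the lowest at -0.18. Of 7 class II genes, H2-DMa reached 50 CPM, in control LN. Below that level, Cd74 was at 11.5 CPM in CD8-IFNγRKO and 48.2 CPM in control tumors (log2 ratio -1.98). In LN it was at 13.6 and 8.45 CPM (0.63), and the cells it came from were not identified.

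Of the regulators, Irf1, a transcription factor induced by interferons, was lower in CD8-IFNγRKO TILs, with 191 against 319 CPM (log2 ratio -0.74, rank 62 from the lowest of 3094). It had 223 against 239.6 CPM in LN cells (-0.10). In cells with 6 or more cycling UMIs relative to those with 0 to 1, Irf1 was at -0.75 in CD8-IFNγRKO and -0.53 in control tumors. Among thinned TILs with 0 to 1 cycling UMIs it was at 313 and 397 CPM, and with 6 or more at 186 and 275 CPM. How far cycling accounts for its pooled tumor ratio was not tested. The highest ratios of the list were 0.22 for Nfyb in tumors and 0.08 for Rfxap in LN, both subunits of factors that bind MHC promoters. Ciita, the class II transactivator, was below 0.5 CPM in every library.

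Among genes that are not members, 4 of the 5 whose UMIs went most closely with the summed 10 genes across thinned cells, by the lowest Pearson r of the 4 libraries among 2078 genes, were Ifi27l2a (0.105 to 0.349), Isg15 (0.091 to 0.231), H2-Q4 (0.090 to 0.169) and H2-T22 (0.086 to 0.232). Over 6399 to 8356 cells per library, which share a library and a fixed depth, these are weak correlations and only a description. The closest pair of members was H2-K1 and H2-D1, with r of 0.371 and 0.293 in CD8-IFNγRKO and control tumors and 0.108 and 0.113 in LN, and the median of the 45 pairs was between 0.015 and 0.045. Counting noise limits r for genes with few UMIs, so pairs of unlike abundance cannot be ranked fairly. In CD8-IFNγRKO tumors H2-K1 averaged 4.35 and Nlrc5 0.100 UMIs per thinned cell.

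Clones, cells with the same V, J and CDR3 nucleotides in both chains, showed the spread within a pooled tumor library. The paper reports that clones did not overlap between mice. Because each library pooled mice, differences between clones and differences between mice cannot be told apart in this spread. There were 21 clones with at least 50 cells in CD8-IFNγRKO tumors (5228 cells) and 10 in control tumors (3340 cells). H2-K1 ran from 2086 to 4665 CPM with a median of 2427 in the former, and from 2782 to 3987 CPM with a median of 3077 in the latter. H2-D1 had medians of 2153 and 2620.0 CPM, and B2m of 1972 and 2405 CPM. The medians were lower in CD8-IFNγRKO tumors, but the ranges of the clones overlapped for all 10 genes. For Psmb9 the order was the other way, with medians of 514 and 435 CPM and ranges of 456 to 616 and 372 to 559 CPM. In clones of 10 or more cells (5411 and 3899 cells), H2-K1 was at 2402 and 3002 CPM. In cells whose clone was seen once (364 and 182 cells), H2-K1 was at 2692 and 2485 CPM and B2m at 2253 and 2052 CPM. H2-D1 was at 2152 and 2125 CPM. These values rest on 1868 to 4703 UMIs each, and for these genes the CD8-IFNγRKO library was not the lower one. It was the lower one for Tap1 (208 and 248 CPM), Tap2 (174 and 221 CPM) and Nlrc5 (65.2 and 70.3 CPM). Tapbp was at 299.9 and 283 CPM, Psmb10 at 306 and 282 CPM and Psmb8 at 895 and 894 CPM. Psmb9 was at 347 CPM in both. Clones share a library and are not replicates of a genotype.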

How the data were processed

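Libraries were made from sorted CD8 T cells of 3 pooled mice. The authors mapped reads with Cell Ranger 6.0.0 to mouse build mm10 and deposited tables of raw UMI counts, not normalized, and TCR contigs with counts of UMIs for 2 libraries. A cell was kept if it had 200 to 6000 detected genes, mitochondrial UMIs of 3% or less, no single gene over 20% of its UMIs, and UMIs of Cd2, Cd8a and Cd8b1. Cells with 4 or more of 12 myeloid markers (0 to 3 per library) were removed in place of the study's cluster-based removal, and no doublet caller was run.

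Counts were pooled per library as CPM, with exact Poisson intervals. Log2 ratios used 1 CPM added and exact conditional binomial intervals at 95%. UMI ratios of a pair within a library also had exact conditional binomial intervals. Differences of these ratios between genotypes, and differences between tumor and LN log2 ratios, had intervals from normal approximations on the log scale. The background was every gene, other than TCR segments, that reached 50 CPM in 1 of the compared libraries. With 1 library per group no test was run. Cells were thinned to 1600 UMIs for strata, leaving out 278, 701, 41 and 237 shallower cells of CD8-IFNγRKO tumor, control tumor, CD8-IFNγRKO LN and control LN. On counts simulated with counting error alone for 200 changed genes, intervals held the true ratio for 94.5% (tumor) and 95.0% (LN) of genes between genotypes. Such counts follow the model of the intervals, so this checks the calculation and not the spread between cells or mice.

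Members and lists were chosen with earlier results of these data known. Named genes were the 10 members, the highest or lowest of each list, Irf1, Ciita, Psmb5, Psmb6, Psmb7, Ifngr1 and 5 genes by correlation. Cd74 was added after seeing the data. A gene under this rule is left out of the text. Alternatives concerned filters, library size, cell weights, depth, pseudocount and fold. Depth bins and strata of pair ratios were chosen after seeing the data. Python 3.11.15 with numpy 2.4.6, scipy 1.17.1, pandas 2.3.3, matplotlib 3.10.9 and Biopython 1.88 was used. Promoter windows were those of RefSeq on GRCm38.p6.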

Additional observations from a re-analysis of the deposited data

Results flagged for a closer look

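For 4 of the 10 genes the CD8-IFNγRKO library was the higher one in tumor and the lower one in LN. The log2 ratio of CD8-IFNγRKO over control was greater in tumor than in LN by 0.21 for Tapbp, 0.22 for Psmb8, 0.52 for Psmb9 and 0.35 for Psmb10. With 1 library per tissue and genotype, these differences were not tested.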

How the results depend on the processing

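No paired analysis was possible because each group was 1 library and the labels carry no replicate numbers. Of 90 values per comparison (10 genes under 9 alternatives, of which leaving out cells with B cell, myeloid or melanoma UMIs was chosen after seeing the data), 71 in tumor and 80 in LN stayed within the main interval between genotypes, and 54 in control and 52 in CD8-IFNγRKO mice did so between tissues. With TCR, ribosomal, mitochondrial and heat shock genes left out of the library size, 1 gene was lower in the tumor than in LN in each genotype, 3 were higher in control and 4 in CD8-IFNγRKO mice, and in CD8-IFNγRKO mice H2-K1 turned to -0.10 and Tapbp to -0.03. With a median-ratio size factor, 1 gene was lower in CD8-IFNγRKO than in control TILs, 4 genes were higher in tumor than LN in each genotype, 1 was lower in CD8-IFNγRKO mice, and H2-K1 turned to -0.07 there. With per-cell means, Nlrc5 of CD8-IFNγRKO tumor over LN turned to 0.08, and among cells with 4000 to 8000 UMIs to 0.44, while Nlrc5 of CD8-IFNγRKO over control TILs turned to 0.07. With 10 CPM added, 1 gene was lower in LN. At 1.5-fold, 0 were lower in LN, and 3 in control and 4 in CD8-IFNγRKO mice were higher in tumor. With strata set on all UMIs, 2 genes were lower among TILs with 0 type I interferon UMIs, against 1. The share of all genes past the limit under each of these settings is not given, so these counts show only how far they depend on processing. Apart from fewer genes passing a larger fold or pseudocount, the cause of these changes was not tested.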
